A study of Homo sapiens with 2 samples.

Results

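The 37 genes of the human mitochondrial genome were followed in poly(A) RNA sequencing of HEK293T, an established line of human embryonic kidney origin that carries the SV40 large T antigen. They were chosen by symbol, as every row whose gene symbol begins with MT-, and comprise 13 mRNAs, 2 rRNAs and 22 tRNAs among 57820 gene rows. 1 library came from HEK293T cells given an siRNA against SRα and 1 from HEK293T cells given a control siRNA, and RNA was extracted with TRIzol from both. SRα, encoded by SRPRA, is the alpha subunit of the receptor that docks ribosomes carrying the signal recognition particle at the endoplasmic reticulum. The siRNA sequences, the length of treatment and the number of cultures behind a library are not given in the labels. Each group is a single library, so differences could not be set against replicates or tested, and the intervals below cover counting error only.

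The mitochondrial genome is a small circle whose strands, called heavy and light, are each transcribed from promoters in a noncoding control region into long RNAs. Most genes are called heavy strand genes here, and MT-ND6 with some of the tRNAs light strand genes. The tRNAs stand between most of the longer genes, and cutting them out of the long RNA releases the mRNAs and rRNAs. The rRNAs build the mitochondrial ribosome, the tRNAs decode its messages, and the mRNAs are translated inside the organelle into membrane subunits of the respiratory chain and ATP synthase, so they do not pass through the receptor that holds SRα. Most mitochondrial mRNAs carry short poly(A) tails, while MT-ND6 mRNA and mature tRNAs lack stable ones, and the library kit named in the labels selects poly(A) RNA.

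Only uniquely aligned reads were counted, and the nuclear genome holds pseudogene copies of mitochondrial DNA, so the sequences that decide whether a read is unique are shown first. In each pair the upper line holds the first 100 bases of the mitochondrial gene and the lower line its closest nuclear copy, from GENCODE 29 transcripts (GRCh38), with capitals at the bases that differ between the pair. MTND2P28 and MTATP6P1 lie on chromosome 1, MTCYBP35 and MTND6P4 on chromosome 5.
MT-ND2: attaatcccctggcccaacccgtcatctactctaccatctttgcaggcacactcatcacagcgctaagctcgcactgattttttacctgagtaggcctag
MTND2P28: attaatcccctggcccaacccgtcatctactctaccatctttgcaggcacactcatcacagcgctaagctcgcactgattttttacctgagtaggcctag
MT-ATP6: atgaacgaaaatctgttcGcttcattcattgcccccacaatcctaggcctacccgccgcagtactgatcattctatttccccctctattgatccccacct
MTATP6P1: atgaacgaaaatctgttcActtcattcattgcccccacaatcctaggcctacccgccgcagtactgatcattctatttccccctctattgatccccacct
MT-CYB: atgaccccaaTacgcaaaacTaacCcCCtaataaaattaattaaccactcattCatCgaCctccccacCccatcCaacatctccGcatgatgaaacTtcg
MTCYBP35: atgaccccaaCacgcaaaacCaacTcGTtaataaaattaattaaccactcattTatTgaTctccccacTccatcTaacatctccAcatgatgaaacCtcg
MT-ND6: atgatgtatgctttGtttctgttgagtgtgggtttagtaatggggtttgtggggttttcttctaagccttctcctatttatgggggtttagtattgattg
MTND6P4: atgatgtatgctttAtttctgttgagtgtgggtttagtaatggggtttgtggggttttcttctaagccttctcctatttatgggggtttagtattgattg
The MT-ND2 pair had 0 differing bases in this stretch, the MT-ATP6 pair 1, the MT-ND6 pair 1 and the MT-CYB pair 12. Over the whole gene, MT-ND2 was 98.4% identical to its copy, MT-ATP6 98.5%, MT-ND6 95.02% and MT-CYB 86.0%. The strand of origin can also be read from the letters. MT-ND6 mRNA is 35.6% G and 7.05% C, whereas the 12 mRNAs of the other strand hold 6.28% to 16.2% G and 29.5% to 36.0% C.

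Reads assigned to genes numbered 3896721 for SRα siRNA and 2445200 for control siRNA. SRPRA itself had 449 reads (117 CPM) in the SRα siRNA library and 507 (205 CPM) in the control siRNA library, where CPM is the count per 1000000 reads of scaled library size. Its log2 ratio, SRα siRNA over control siRNA, was -0.81 (95% counting interval -0.998 to -0.62). Of markers of the HEK293 line, VIM, NEFM, KRT18 and KRT8 stood at 386, 137, 22.6 and 7.54 CPM in the SRα siRNA library and at 311, 110, 24.2 and 9.29 CPM in the control siRNA library. PAX2 and SIM1 had 7 and 8 reads in the SRα siRNA library and 1 and 7 reads in the control siRNA library, and NEFL and LHX1 matched no row. Of markers of other cells, PTPRC and CD3E had 0 reads in both libraries and ALB had 1 in the SRα siRNA library and 0 in the control siRNA library. EPCAM and COL1A1 stood at 7.80 and 11.4 CPM in the SRα siRNA library and at 8.08 and 12.5 CPM in the control siRNA library. PECAM1 matched no row. Of uniquely aligned reads, 4.58% in the SRα siRNA library and 4.67% in the control siRNA library matched more than 1 gene and were not counted. Whether strand was used in counting is not given in the sources used here. Of 109 genes that lie wholly inside exons of an opposite-strand gene with more than 300 reads, 107 had 0 reads, which strand-blind counting that drops shared reads would give and which few antisense reads would give too, so strand use was not settled and reads of opposite-strand mitochondrial transcripts cannot be told apart.

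Mitochondrially encoded RNA took nearly the same share of the uniquely aligned reads assigned to genes in both libraries. Alignments that were not unique lie outside this share. They made up 76.5% of entries in the SRα siRNA library and 79.6% in the control siRNA library. The 37 genes held 134887 reads, or 3.46% of gene reads (Wilson 95% interval 3.44% to 3.48%), in the SRα siRNA library and 84844 reads, or 3.47% (3.45% to 3.49%), in the control siRNA library. The split between classes was also alike. The rRNAs supplied 77.2% of mitochondrial reads in the SRα siRNA library and 77.3% in the control siRNA library. The mRNAs supplied 21.3% in each, and the tRNAs supplied 1.59% in the SRα siRNA library and 1.48% in the control siRNA library. On the log2 scale of CPM the summed reads differed by 0.03 for the mRNAs (0.01 to 0.06), 0.03 for the rRNAs (0.02 to 0.04) and 0.14 for the tRNAs (0.04 to 0.24), beside a median of 0.01 over the 12747 genes that averaged 1 CPM or more, called measured. With library totals in place of TMM factors the first 2 of these values turned to -0.0030 and -0.0056, so no direction is given for either class. The tRNA value was 0.10 with library totals and, as given below, rested largely on MT-TF.

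Of the 37 genes, 26 were measured, 11 had a mean under 1 CPM and 9 of those had no reads at all. Past 1.5-fold, 0 of the measured members lay on the higher side in SRα siRNA and 1, MT-TC, on the lower, against 6.55% and 6.97% of all measured genes. At 2-fold the counts were also 0 and 1, against 2.15% and 2.57%, and MT-TC lay on that limit. The counting interval lay wholly above 0 for 2 members, MT-RNR2 and MT-TF, against 5.46% of measured genes, and wholly below 0 for 3, MT-RNR1, MT-ND1 and MT-TC, against 3.39%.

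**Figure D1:**
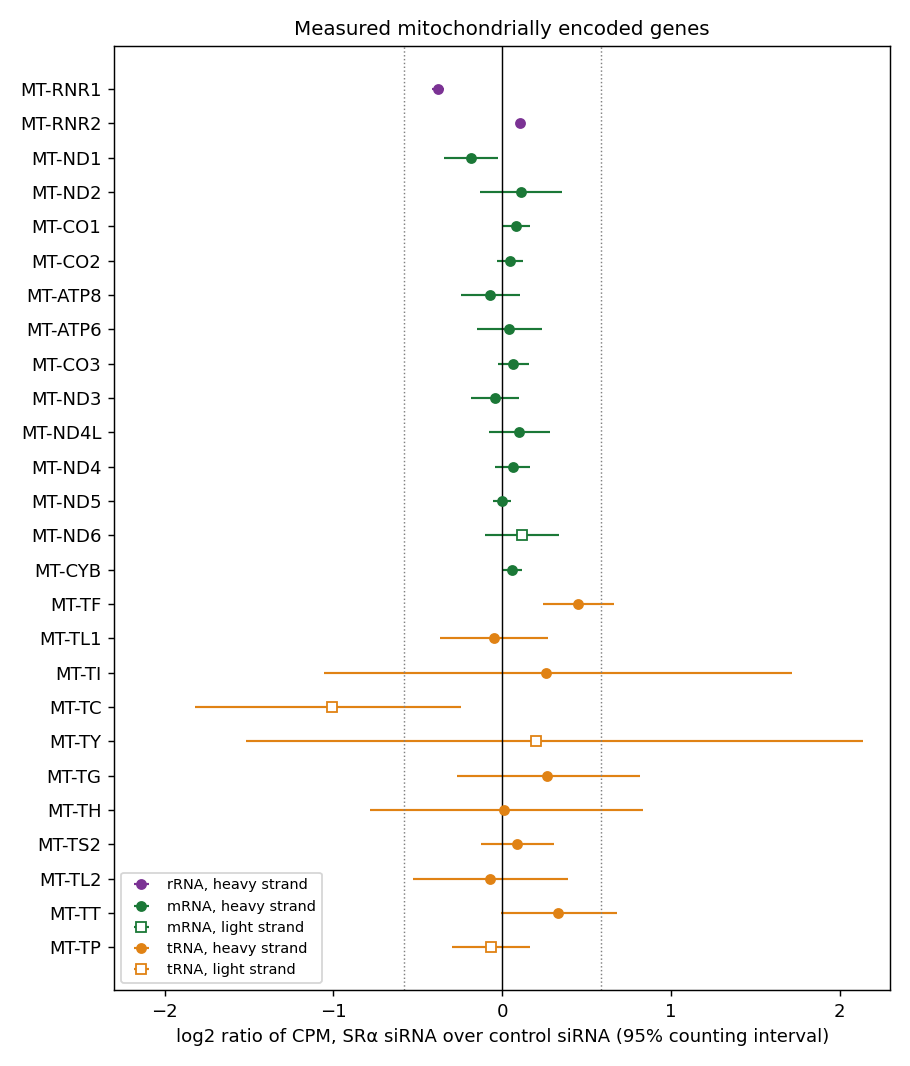
Log2 ratio of CPM, SRα siRNA over control siRNA, for the 26 measured mitochondrially encoded genes, in genome order within each class; bars are 95% counting intervals, filled circles mark heavy strand genes, open squares light strand genes, and dotted lines a 1.5-fold difference. MT-RNR1 lies at -0.38 and MT-RNR2 at 0.10 with intervals narrower than or close to their symbols, and the mRNAs lie between -0.19 and 0.11.

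The rRNAs differed between the libraries in opposite directions, while their sum hardly differed. MT-RNR1, the rRNA of the small ribosomal subunit, had 13353 reads (3470 CPM) in the SRα siRNA library and 11194 reads (4520.5 CPM) in the control siRNA library. MT-RNR2, the rRNA of the large subunit, had 90716 reads (23576 CPM) in the SRα siRNA library and 54365 reads (21954 CPM) in the control siRNA library. Thus MT-RNR1 was lower and MT-RNR2 slightly higher in the SRα siRNA library, and the sum, which is mostly MT-RNR2, hid the lower value of MT-RNR1. In bulk RNA, fewer cells rich in MT-RNR1 and less of it per cell cannot be told apart. The log2 ratio was -0.38 (-0.42 to -0.35) for MT-RNR1, a fold of 0.768 (0.749 to 0.787), and 0.10 (0.09 to 0.12) for MT-RNR2, and neither sign turned under any of the 4 other scalings, in which MT-RNR1 lay between -0.42 and -0.38 and MT-RNR2 between 0.07 and 0.11.

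A comparison inside each library needs no scaling. MT-RNR1 had 14.7 reads per 100 reads of MT-RNR2 in the SRα siRNA library and 20.6 in the control siRNA library, a ratio of ratios of 0.715 (0.696 to 0.735). Set against the 13 mRNAs instead, MT-RNR1 had 46.6 reads per 100 mRNA reads in the SRα siRNA library and 62.1 in the control siRNA library, a ratio of 0.750 (0.727 to 0.774). MT-RNR2 against the same mRNAs gave 1.05 (1.03 to 1.07). Per kb of gene, MT-RNR2 stood 4.16 times above MT-RNR1 in the SRα siRNA library and 2.97 times above it in the control siRNA library. The MT-RNR1 to MT-RNR2 comparison was chosen after the values were seen.

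MT-RNR2 had the highest mean CPM of all genes and MT-RNR1 the tenth highest, so both rRNAs are among the best-counted genes of these libraries. Of 90 genes averaging 1000 CPM or more, MT-RNR1 had the lowest ratio, beside a median of 0.03. Among the 4007 genes of at least 50 CPM it ranked 25 from the lowest, and MT-RNR2 ranked 2785. In that range lay 19 members. MT-TF was the only one of them at least 1.2-fold higher, against 5.24% of those 4007 genes, and MT-RNR1 the only one at least 1.2-fold lower, against 2.92%. None of the 19 was past 1.5-fold, against 0.175% of the 4007 higher and 0.0499% lower. Intervals lay wholly above 0 for 2 of the 19, against 11.7%, and wholly below for 2, against 4.89%. The limits of 1.2-fold, 50 CPM and 1000 CPM were set after the values were seen. Both rRNAs have short tails and are only partly captured by poly(A) selection, and the part of capture in the difference was not tested.

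**Figure D2:**
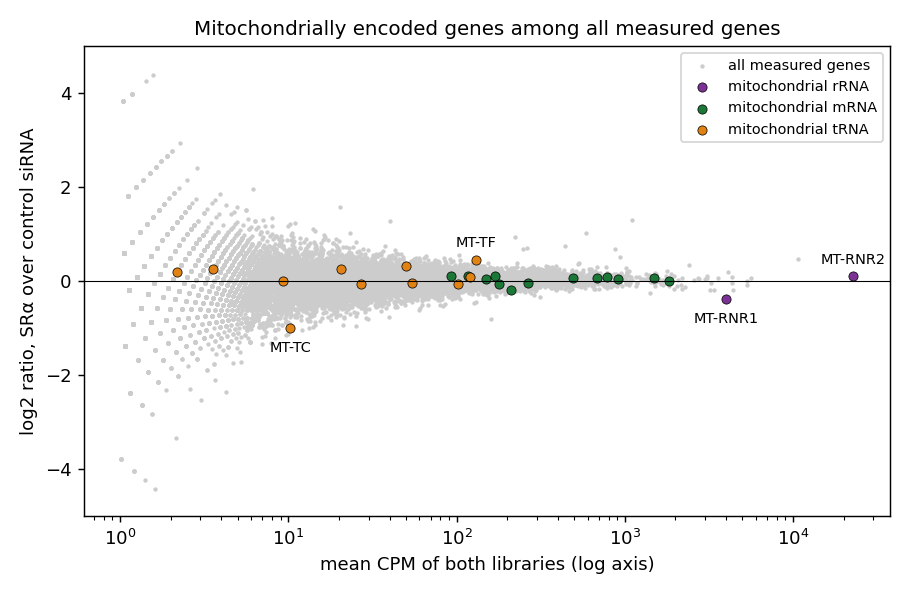
Log2 ratio of CPM, SRα siRNA over control siRNA, against mean CPM of both libraries on a log axis, for 12747 measured genes (grey) and the mitochondrially encoded genes by class. MT-RNR1 lies at -0.38 below the narrow band of other well-read genes, and the mRNAs lie within that band.

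The mRNAs kept nearly the same proportions in both libraries. Of the 13 mRNAs, 9 had a ratio above 0 and 4 below (10 and 3 with DESeq2 size factors), with a median of 0.06 (0.02 with library totals) and a range of -0.19 to 0.11, beside a median of 0.04 over the 4007 genes of at least 50 CPM. 0 were past 1.2-fold in either direction, against 5.24% of those 4007 genes higher and 2.92% lower, so 0 of 13 is close to those shares. Levels between genes differed far more than levels between libraries. Per kb of gene the highest mRNA stood 14.6 times above the lowest in the SRα siRNA library and 15.2 times in the control siRNA library.

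Complex I, the NADH dehydrogenase that feeds electrons into the chain, draws 7 subunits from the mitochondrial genome. Their mRNAs summed to 12215 reads in the SRα siRNA library and 7830 in the control siRNA library, a log2 ratio of 0.01 (-0.04 to 0.05). MT-ND5 was the most read, with 7007 reads (1821 CPM) in the SRα siRNA library and 4512 reads (1822 CPM) in the control siRNA library, a log2 ratio of -0.0008 (-0.055 to 0.05). No difference in MT-ND5 was thus detectable, within a narrow interval. MT-ND4 had 1926 reads (501 CPM) in the SRα siRNA library and 1188 reads (480 CPM) in the control siRNA library. MT-ND4L, which precedes MT-ND4 on a shared mRNA, had 677 reads (176 CPM) in the SRα siRNA library and 406 reads (164 CPM) in the control siRNA library. The reading frames of this pair overlap by 7 bases, where a read matches both genes, and their ratios of 0.06 (-0.04 to 0.17) and 0.10 (-0.08 to 0.28) lay within each other's intervals. MT-ND3 had 1010 reads (262 CPM) in the SRα siRNA library and 671 reads (271 CPM) in the control siRNA library. MT-ND2 had 372 reads (96.7 CPM) in the SRα siRNA library and 222 reads (89.7 CPM) in the control siRNA library. The intervals of both included 0.

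MT-ND1, the complex I mRNA that follows the rRNA genes, was the lowest of the mRNAs. It had 757 reads (197 CPM) in the SRα siRNA library and 554 reads (224 CPM) in the control siRNA library, a log2 ratio of -0.19 (-0.35 to -0.02). Against the 12 other mRNAs within each library the ratio of ratios was 0.855 (0.764 to 0.958), and among the 13 such comparisons it was the only interval that did not include 1. The sign was the same under each of the 4 other scalings. It was picked as the lowest of 13, which its interval does not allow for.

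Complex IV, the cytochrome c oxidase that reduces oxygen, has its core subunits from MT-CO1, MT-CO2 and MT-CO3. MT-CO1 had 3089 reads (803 CPM) in the SRα siRNA library and 1877 reads (758 CPM) in the control siRNA library. MT-CO2 had 3553 reads (923 CPM) in the SRα siRNA library and 2218 reads (896 CPM) in the control siRNA library. MT-CO3 had 2688 reads (699 CPM) in the SRα siRNA library and 1652 reads (667 CPM) in the control siRNA library. All of these mRNAs had ratios slightly above 0, at 0.08, 0.04 and 0.07, and the interval of each included 0. Summed, they had 9330 reads in the SRα siRNA library and 5747 in the control siRNA library, a ratio of 0.06 (0.02 to 0.11). With TMM factors this interval lay above 0 and held the median of 0.04 over genes of at least 50 CPM. Its lower limit is smaller in size than the -0.036 by which library totals moved the median of all measured genes. MT-CYB, the cytochrome b of complex III, had 5875 reads (1527 CPM) in the SRα siRNA library and 3635 reads (1468 CPM) in the control siRNA library, a ratio of 0.06 (-0.003 to 0.12).

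ATP synthase takes its proton channel subunit from MT-ATP6 and an accessory subunit from MT-ATP8, which share an mRNA and overlap by 46 bases. MT-ATP6 had 587 reads (153 CPM) in the SRα siRNA library and 367 reads (148 CPM) in the control siRNA library. MT-ATP8 had 670 reads (174 CPM) in the SRα siRNA library and 453 reads (183 CPM) in the control siRNA library. Their ratios were 0.04 (-0.15 to 0.23) and -0.07 (-0.25 to 0.10). No difference between libraries was detectable for either at this depth. Per kb, MT-ATP8 stood above MT-ATP6 in both libraries. MT-ATP8 was at 841 CPM per kb in the SRα siRNA library and 884 in the control siRNA library, and MT-ATP6 at 224 in the SRα siRNA library and 218 in the control siRNA library.

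**Figure D3:**
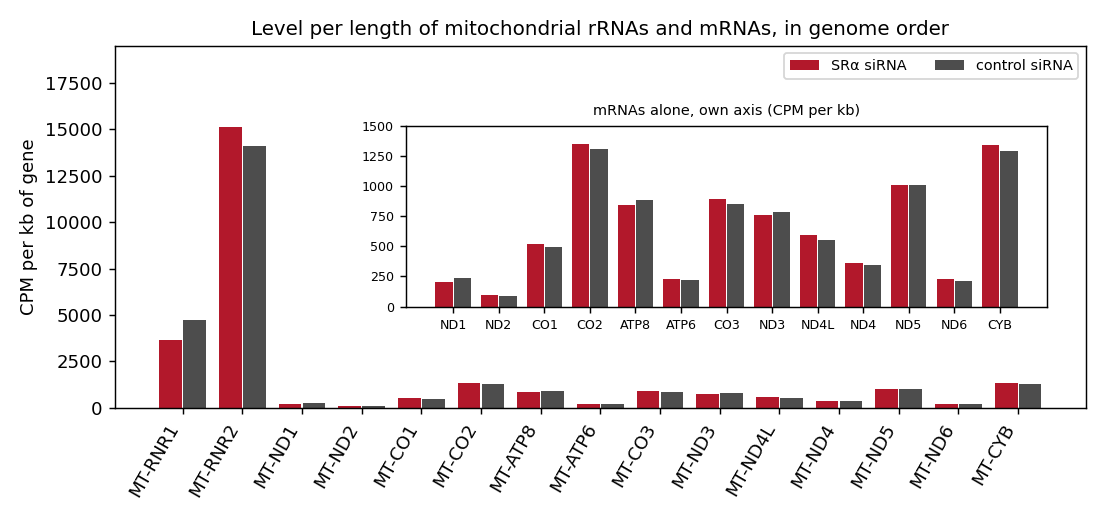
CPM per kb of gene for the mitochondrial rRNAs and mRNAs in genome order, SRα siRNA beside control siRNA, with the mRNAs redrawn on their own axis in the inset. MT-RNR2 stands at 15122 CPM per kb with SRα siRNA and 14082 with control siRNA, MT-RNR1 at 3638 with SRα siRNA and 4738 with control siRNA, and the mRNAs between 92.8 and 1350 in the SRα siRNA library and between 86.0 and 1309.5 in the control siRNA library.

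The order of levels per kb was followed beside the nuclear copies shown above. The share of 50-base windows of a gene with an exact copy in an annotated nuclear transcript was 49.5% for MT-CO1, 46.7% for MT-ATP6 and 43.6% for MT-ND2, but 8.23% for MT-ATP8, 1.19% for MT-CYB and 0 for MT-ND3 and MT-ND4L. MT-ND2 had the lowest level of all mRNAs, at 92.8 CPM per kb in the SRα siRNA library and 86.0 in the control siRNA library. MT-CYB was at 1338 CPM per kb in the SRα siRNA library and 1287 in the control siRNA library. Levels did not follow the copied share throughout. MT-CO2, with 28.98% of its windows copied, had the highest level, at 1350 CPM per kb in the SRα siRNA library and 1309.5 in the control siRNA library. MT-CO3, with 30.6% copied, stood at 891 in the SRα siRNA library and 851 in the control siRNA library. MT-ND4, with 3.54% copied, stood at 363 in the SRα siRNA library and 348 in the control siRNA library. The 6 mRNAs with at least 20% of windows copied had a median of 363 CPM per kb (89.4 to 1330, mean of both libraries), and the 7 others 771 CPM per kb (222 to 1312). Across the 13 mRNAs, which share the same 2 libraries, Spearman's rho between copied share and level was -0.35 and Pearson's r -0.39 for 50-base windows, -0.34 and -0.33 for 30-base windows, and -0.47 and -0.50 for 75-base windows. The log2 ratio between the libraries had a median of 0.06 in both sets of mRNAs. Reads lost to copies were not counted in these files, so their part in the levels was not tested. MT-RNR1 had no copy among annotated nuclear transcripts, and 14.0% of the windows of MT-RNR2 had one. Copies outside annotated transcripts were not analysed here.

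**Figure D4:**
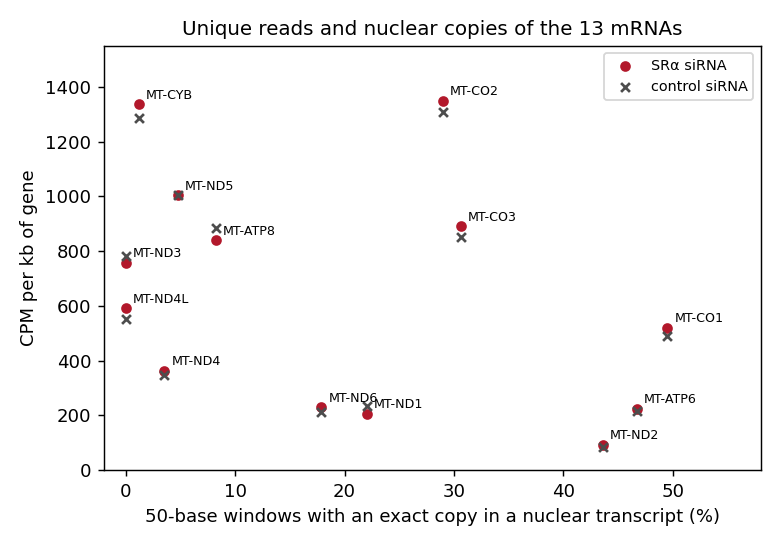
CPM per kb of gene against the percentage of 50-base windows with an exact copy in a nuclear GENCODE 29 transcript, for the 13 mitochondrial mRNAs in the SRα siRNA library (filled) and the control siRNA library (crosses). MT-ND2, MT-ATP6 and MT-CO1, with the most copied windows, stand at or below 521 CPM per kb, while MT-CO2 stands at 1350 with SRα siRNA and 1309.5 with control siRNA at 28.98% copied. MT-ND4 stands at 363 with SRα siRNA and 348 with control siRNA at 3.54% copied.

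MT-ND6 is the gene of the light strand mRNA, which encodes a complex I subunit. In reads counted, it did not differ detectably from the heavy strand mRNA genes in its ratio between the libraries. Strand use in counting was not settled, so opposite-strand RNA across MT-ND6 cannot be told apart from its own mRNA. The comparison is thus between genes and may not be between strands. MT-ND6 had 466 reads (121 CPM) in the SRα siRNA library and 277 reads (112 CPM) in the control siRNA library, a log2 ratio of 0.11 (-0.10 to 0.33). Per 100 reads of the 12 other mRNAs it had 1.65 reads in the SRα siRNA library and 1.56 in the control siRNA library, a ratio of ratios of 1.06 (0.909 to 1.23). Set against MT-ND5 and MT-CYB alone, its neighbours on the map, the ratio was 1.06 (0.912 to 1.24). Its level per kb was 231 CPM in the SRα siRNA library and 213 CPM in the control siRNA library, close to MT-ND1 and MT-ATP6. In all, the 9 genes of the light strand supplied 0.657% of mitochondrial reads in the SRα siRNA library and 0.679% in the control siRNA library.

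The nuclear copy printed beneath MT-ND6 above, MTND6P4, was itself counted, with 230 reads (59.8 CPM) in the SRα siRNA library and 131 reads (52.9 CPM) in the control siRNA library, a ratio of 0.18 (-0.14 to 0.50). Of 389 nuclear pseudogenes of mitochondrial genes in the files, 23 had reads and 6 were measured. Together they held 843 reads in the SRα siRNA library and 473 in the control siRNA library, or 0.625 per 100 mitochondrial reads in the SRα siRNA library and 0.557 in the control siRNA library. MTCO3P12, a copy of MT-CO3 on chromosome 1, had the most, with 374 reads (97.2 CPM) in the SRα siRNA library and 210 reads (84.8 CPM) in the control siRNA library. MTCYBP18, MTND4P12 and MTND5P11 had 69, 68 and 65 reads in the SRα siRNA library and 33, 55 and 28 reads in the control siRNA library. The interval of each of these 5 pseudogenes included 0. The log2 ratio of all pseudogene reads together was 0.20 (0.0337 to 0.36), above 0 with TMM factors. Its lower limit is smaller in size than the -0.036 by which library totals moved the median of all measured genes. Its place above 0 thus depends on the scaling. Whether such reads come from nuclear RNA or from mitochondrial RNA that differs from the reference sequence was not tested.

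The tRNA genes are short, between 59 and 75 bases, and most abut their neighbours, so a read that runs past the gene's end matches a second gene. Sequences are given for MT-TF and MT-TS2, the most-read tRNA genes of the heavy strand, MT-TP, the most-read of the light strand, MT-TC, which differed most between the libraries among the 11 measured tRNAs, and MT-TV, which had no reads, as the genes' own strand in DNA letters, from GENCODE 29 transcripts. MT-TF decodes phenylalanine codons, MT-TS2 serine, MT-TC cysteine, MT-TP proline and MT-TV valine.
MT-TF: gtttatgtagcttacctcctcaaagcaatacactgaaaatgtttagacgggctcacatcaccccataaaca
MT-TS2: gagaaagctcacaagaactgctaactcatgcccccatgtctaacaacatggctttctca
MT-TC: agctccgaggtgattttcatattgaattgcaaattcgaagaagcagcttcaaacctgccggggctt
MT-TP: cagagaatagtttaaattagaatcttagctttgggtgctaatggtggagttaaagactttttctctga
MT-TV: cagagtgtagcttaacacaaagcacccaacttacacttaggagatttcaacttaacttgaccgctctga
MT-TF and MT-TP are the tRNA genes that border the control region, and MT-TV lies between the rRNA genes with 0 bases on either side. 9 of the 22 tRNAs had no reads, 4 of the 14 on the heavy strand and 5 of the 8 on the light strand. They were MT-TV, MT-TQ, MT-TM, MT-TW, MT-TA, MT-TN, MT-TS1, MT-TK and MT-TE. A count of 0 allows a level of up to 0.780 CPM (3 reads) in the SRα siRNA library and 1.21 CPM in the control siRNA library. MT-TD had 3 reads and MT-TR 4 in the SRα siRNA library, against 0 and 1 in the control siRNA library.

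The remaining 11 tRNAs were measured. MT-TF, the first gene downstream of the control region and directly before MT-RNR1, had 580 reads (151 CPM) in the SRα siRNA library and 273 reads (110 CPM) in the control siRNA library, a log2 ratio of 0.45 (0.24 to 0.66) and a fold of 1.37. It was higher in the SRα siRNA library than in the control siRNA library, while its neighbour MT-RNR1 was lower. Whether these differences are linked was not tested. MT-TF had the highest ratio of the 11 measured tRNAs, which its interval does not allow for. MT-TS2 had 478 reads (124 CPM) in the SRα siRNA library and 289 reads (117 CPM) in the control siRNA library, a ratio of 0.09 (-0.12 to 0.31). MT-TP had 385 reads (100.1 CPM) in the SRα siRNA library and 260 reads (105 CPM) in the control siRNA library, a ratio of -0.07 (-0.30 to 0.16). Neither showed a detectable difference at this depth.

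MT-TT, the threonine tRNA that follows MT-CYB, had 213 reads (55.4 CPM) in the SRα siRNA library and 109 reads (44.0 CPM) in the control siRNA library, a ratio of 0.33 (-0.01 to 0.68). MT-TL1, a leucine tRNA between MT-RNR2 and MT-ND1, had 204 reads (53.0 CPM) in the SRα siRNA library and 136 reads (54.9 CPM) in the control siRNA library. MT-TL2, the other leucine tRNA, had 102 reads (26.5 CPM) in the SRα siRNA library and 69 reads (27.9 CPM) in the control siRNA library. These 3 intervals included 0. MT-TG, MT-TH, MT-TI and MT-TY, for glycine, histidine, isoleucine and tyrosine, had 86, 36, 15 and 9 reads in the SRα siRNA library and 46, 23, 8 and 5 reads in the control siRNA library. Their ratios lay between 0.01 and 0.26, and the interval of each included 0.

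Of the 11 measured tRNAs, 7 had a ratio above 0 and 4 below. MT-TC lay furthest below, on few reads. It had 26 reads (6.76 CPM) in the SRα siRNA library and 34 reads (13.7 CPM) in the control siRNA library, a log2 ratio of -1.01 (-1.82 to -0.24). It was picked as the lowest of 11 measured tRNAs, which its interval does not allow for.

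By strand, the 14 heavy strand tRNAs summed to 1721 reads in the SRα siRNA library and 954 in the control siRNA library, a ratio of 0.22 (0.10 to 0.33). The 8 light strand tRNAs summed to 420 reads in the SRα siRNA library and 299 in the control siRNA library, a ratio of -0.15 (-0.36 to 0.07). Light strand tRNAs thus had 24.4 reads per 100 heavy strand tRNA reads in the SRα siRNA library and 31.3 in the control siRNA library, a ratio of ratios of 0.779 (0.656 to 0.925). MT-TP alone supplied 385 of the light strand reads in the SRα siRNA library and 260 in the control siRNA library. Besides MT-TP, the value rested largely on 2 genes. Without MT-TF it was 0.838 (0.700 to 1.004), without MT-TC 0.824 (0.690 to 0.986), and without both 0.887 (0.737 to 1.07). Against the 13 mRNAs, all tRNAs gave a ratio of 1.07 (0.999 to 1.16), and 1.002 (0.922 to 1.09) without MT-TF. These members were left out after the values were seen. The tRNAs are sorted here by annotated strand. Strand use in counting was not settled, so their reads could not be assigned to a strand of origin.

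Mitochondrial RNAs are made, cut, tailed, protected and decayed by proteins encoded in the nucleus. A list of 64 such genes, for transcription, RNA processing, modification and decay, DNA replication and translation factors, was set beside them. 63 had a row, 62 were measured, and 0 of the 62 lay past 1.5-fold on either side, against 6.55% and 6.97% of all measured genes. 39 had a ratio above 0 and 23 below, with a median of 0.06 (0.03 with library totals) beside 0.01 over all measured genes. The interval lay wholly above 0 for 9 and wholly below for 1, against 5.46% and 3.39%. Intervals narrow with depth, so the 41 list genes of at least 50 CPM were also set beside the 4007 genes of that range, a limit chosen after the values were seen. Their median was 0.09, beside 0.04, and the interval lay wholly above 0 for 8 and wholly below for 1, against 11.7% and 4.89%. In that range 0.175% of genes were past 1.5-fold higher and 0.0499% lower, so 0 of these 41 is close to those shares. POLRMT, the mitochondrial RNA polymerase, had 257 reads (66.8 CPM) in the SRα siRNA library and 134 reads (54.1 CPM) in the control siRNA library, a ratio of 0.30 (-0.003 to 0.62). TFAM, which packages mitochondrial DNA and starts transcription, had 827 reads (215 CPM) in the SRα siRNA library and 542 reads (219 CPM) in the control siRNA library, a ratio of -0.03 (-0.18 to 0.13). TFAM did not differ detectably, and the interval of POLRMT reached just past 0.

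LRPPRC and SLIRP form a complex that stabilises mitochondrial mRNAs and promotes their tailing. LRPPRC had 2764 reads (718 CPM) in the SRα siRNA library and 1587 reads (641 CPM) in the control siRNA library, a ratio of 0.16 (0.075 to 0.25). SLIRP had 2705 reads (703 CPM) in the SRα siRNA library and 1727 reads (697 CPM) in the control siRNA library, a ratio of 0.01 (-0.08 to 0.10). LRPPRC was thus slightly higher in the SRα siRNA library, and no difference in SLIRP was detectable. Among list members of at least 20 CPM, the 4 highest ratios belonged to FASTKD1, an RNA-binding protein of the FASTK family, at 0.50 (0.11 to 0.90), MGME1, a mitochondrial DNA exonuclease, at 0.31 (0.06 to 0.57), POLRMT, and RPUSD4, a pseudouridine synthase, at 0.30 (-0.03 to 0.64). The 4 lowest were TBRG4 (FASTKD4), an RNA-binding protein of the same family, at -0.29 (-0.48 to -0.10), POLG2, the accessory subunit of the DNA polymerase, at -0.26 (-0.68 to 0.17), PUS1, a pseudouridine synthase, at -0.21 (-0.48 to 0.06), and DDX28, a helicase of large subunit assembly, at -0.13 (-0.50 to 0.24). They are the extremes of 53 genes, which the intervals do not allow for.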

How the data were processed

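RNA was sequenced in 1 SRα siRNA and 1 control siRNA library of HEK293T cells. TRIzol extraction and a stranded kit that selects poly(A) RNA are named in the labels' protocols. The authors deposited raw read counts for each Ensembl gene ID, as whole numbers without scaling. The submitters' processing notes name cutadapt, STAR 2.5.2b and the build hg19. For the counting program, its strand setting and the annotation, nothing is given in the sources used here. The 5 summary lines that end each file were left out of totals and library sizes; alignments that were not unique made up 76.5% of entries in the SRα siRNA library and 79.6% in the control siRNA library.

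Symbols came from a gene name table for 51996 of 57820 IDs. Gene type, length, strand, neighbours and sequences came from GENCODE 29 by gene ID; because its build is GRCh38, no coordinates are given. Libraries were scaled with edgeR 4.0.16 TMM factors (R 4.3.3). Log2 ratios used a prior count of 0.5 scaled to depth, with exact Clopper-Pearson intervals, and ratios of ratios used exact conditional intervals. Reads carry no molecular identifiers, so intervals and floors cover counting error only. Nuclear copies were found with blastn 2.17.0 (word size 16) in nuclear GENCODE 29 transcripts, then by exact windows on both strands. Intervals were run on simulated counts that held counting error only, so that check does not bear on spread between cultures or duplicate reads. Python 3.11.15 was used with numpy 2.4.6, scipy 1.17.1, pandas 2.3.3 and matplotlib 3.10.9.

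The members, lists, named genes and alternatives were chosen with earlier results of these data known. The rule names every member with at least 10 reads over both libraries, the 5 most-read pseudogenes, and, of the nuclear list, POLRMT, TFAM, LRPPRC, SLIRP and the 4 highest and 4 lowest ratios of at least 20 CPM. MRM1 of that list matched no row. The pseudogene rule as worded also matches MT-TP, which is a member and was not counted as a pseudogene. Alternatives were DESeq2 1.42.0 size factors, upper quartile factors, library totals with and without mitochondrial genes, other filters, a prior count of 2 and other partners in ratios.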

Additional observations from a re-analysis of the deposited data

How the results depend on the processing

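No paired analysis was possible because each group has 1 library. For the same reason no library could be left out. With library totals the log2 ratios of summed reads were -0.0034 for all 37 genes, -0.0030 for the mRNAs and -0.0056 for the rRNAs. With totals without mitochondrial genes they were -0.0036, -0.0031 and -0.0058. All 6 lay below 0, against small values above 0 with TMM factors; these scalings moved the median of all measured genes by -0.04. With no filter, 2 members were past 1.5-fold and 2 past 2-fold, by the addition of MT-TR with 4 reads in the SRα siRNA library and 1 in the control siRNA library. Raising the prior count to 2 left 0 past 2-fold, because MT-TC then lay at -0.96. Against the mRNAs, the log2 ratio of ratios was 0.0693 for MT-RNR2 alone and -0.41 for MT-RNR1 alone, against -0.0027 for both, since they lay on opposite sides. Taking the mRNAs in place of MT-RNR2 gave -0.41 for the MT-RNR1 comparison, against -0.48; this comparison, leaving out MT-TF or MT-TC, and the 50 CPM limit for the nuclear list were chosen after seeing the data. The other 50 alternative values of the class, list and strand results stayed within set limits. For sums and ratios the limit was the main counting interval. For medians it was the typical counting error of a gene in the list, and for counts 1.5 times. Some of these intervals are wide. Without MT-TF, the log2 ratio of ratios of tRNAs against mRNAs fell from 0.10 to 0.0023. That of light against heavy strand tRNAs went from -0.36 to -0.17 without MT-TF and MT-TC, with an interval that included 0. The number of reads limits the tRNAs most: intervals of those under 40 reads span over 1.5 log2 units.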
